A study of Mus musculus with 2 samples.

Results

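The ligands and receptors of the tumour necrosis factor (TNF) superfamily were examined in sorted red pulp macrophages of the mouse spleen, from wild-type mice and from mice with SIRPα-KO as the labelled genotype. Members were the genes named Tnfsf or Tnfrsf with a number, plus Cd40, Cd40lg, Fas, Fasl, Lta, Ltb, Ltbr, Cd27 and Cd70, as far as a probe on the array carried a matching RefSeq accession. They came to 38 of 20642 named genes, 15 ligands and 23 receptors, read by 48 probes. Of the 38, 28 were well above background on both arrays, 5 on the WT array alone, 0 on the other array alone and 5 on neither.

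Most TNF superfamily ligands are trimeric membrane proteins, some of them released by proteases, and they cluster their receptors on a neighbouring cell. Receptors with a death domain, such as Fas, can start caspase-driven cell death, whereas receptors that bind TRAF adaptors, such as CD40, drive NF-κB and MAP kinase signalling. Decoy receptors bind a ligand without passing on a death signal. In the spleen these genes are known for organising lymphoid tissue, for costimulation between lymphocytes and antigen-presenting cells, for B cell survival and for removing activated cells.

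Each genotype was represented by 1 array, hybridised with RNA from the mixed macrophages of 5 mice, so the spread between mice is not contained in any value. The labels define the cells as F4/80-positive with low CD11b after sorting, and state that globin RNA was removed; they give no age, strain or allele. Values are the processed signal, a spot brightness after background subtraction, and log2 values are this signal after scaling each array to its 75th percentile. Differences are log2 values of the array labelled SIRPα-KO, called the KO-labelled array from here on, minus those of the WT array. The value after ± is the scanner software's spot error carried to that difference, which leaves out mice and pools. With a single array per genotype no test between genotypes exists, and 2-fold (1 on the log2 scale) was the limit for calling a gene higher or lower. A gene well above background on only 1 array has a fold that can only be bounded from below, given as "at least". A dim value that already lay above the lowest well-above signal of its array was left as it was and gives no bound.

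Sirpa itself, the targeted gene, gave 795 in WT against 1006 on the KO-labelled array, so its probe did not bear out the label. The sources used here do not say where that probe lies relative to the deleted part. Every direction below follows the labels. Of the 16 red pulp macrophage markers listed, 15 had a probe and 13 were well above background on at least 1 array, while Mertk and Mrc1 were so on neither. Of the 13, 8 lay below 0, Cd163 (-0.57) and Hmox1 (-0.32) among them, with a median of -0.15. C1qa and Axl passed the background limit in WT alone and therefore had to lie at or below 0. Of the 11 well above background on both arrays, 6 lay below 0, also with a median of -0.15. Cd5l (1.46) and C1qc (1.11) were at least 2-fold higher, and 0 were lower by as much. Adgre1, the gene of the sort marker F4/80, went from 6830 to 10406. The scaled signal summed over the list, in multiples of the array's 75th percentile, was 145 and 204. Without Adgre1 it was 76.9 and 87.2, most of it from Csf1r (signals 6601 and 6697). Over 15833 genes well above background on at least 1 array, 5.55% were lower by 2-fold or more and 3.11% higher by as much, with a median difference of -0.09 and 58.1% below 0. In these pooled cells, fewer cells of a type and less RNA per cell cannot be told apart. Of the genes called either way, 36.0% were higher, against 48.0% after quantile normalization, 45.9% after cyclic loess, 45.8% with the 75th percentile taken over probes well above background on both arrays, 46.9% in the authors' values and 20.3% without scaling.

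Among the receptors, 4 of 23 were lower by 2-fold or more on the KO-labelled array and 1 was higher by as much. Of the 21 receptors well above background these are 19.0% and 4.76%, beside 5.55% and 3.11% of all genes well above background on at least 1 array. These were Tnfrsf22, Fas, Cd40 and Tnfrsf26 on the lower side and Tnfrsf10b on the higher side. Among the ligands, 1 of 15, Tnfsf10, was called lower and 0 were called higher, while 5 had only a bound and 3 were not well above background. All 6 of these genes were well above background on both arrays, where 5.56% of all named genes were lower and 2.98% higher by 2-fold or more. The median difference was -0.28 over the 21 receptors and -0.22 over the 12 ligands that were well above background on at least 1 array, beside -0.09 over all such genes. These medians hold 5 ligands that entered through the WT array alone and therefore had to lie at or below 0; over the 7 ligands well above background on both arrays the median was 0.01, beside -0.08 over all genes of that kind. The scaling moved these medians: the ligand median was -0.39 without scaling and -0.08 after quantile normalization, after cyclic loess and in the authors' values, and the receptor median was -0.45 without scaling, -0.19 with the percentile taken over probes well above background on both arrays and -0.065 after normexp background correction. The median of all genes was -0.26 without scaling and -0.02 after quantile normalization. Among named genes with a mean signal of 500 or more, 16.4% were at least 2-fold lower; 4 members were that bright, of which 1 was lower.

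**Figure D1:**
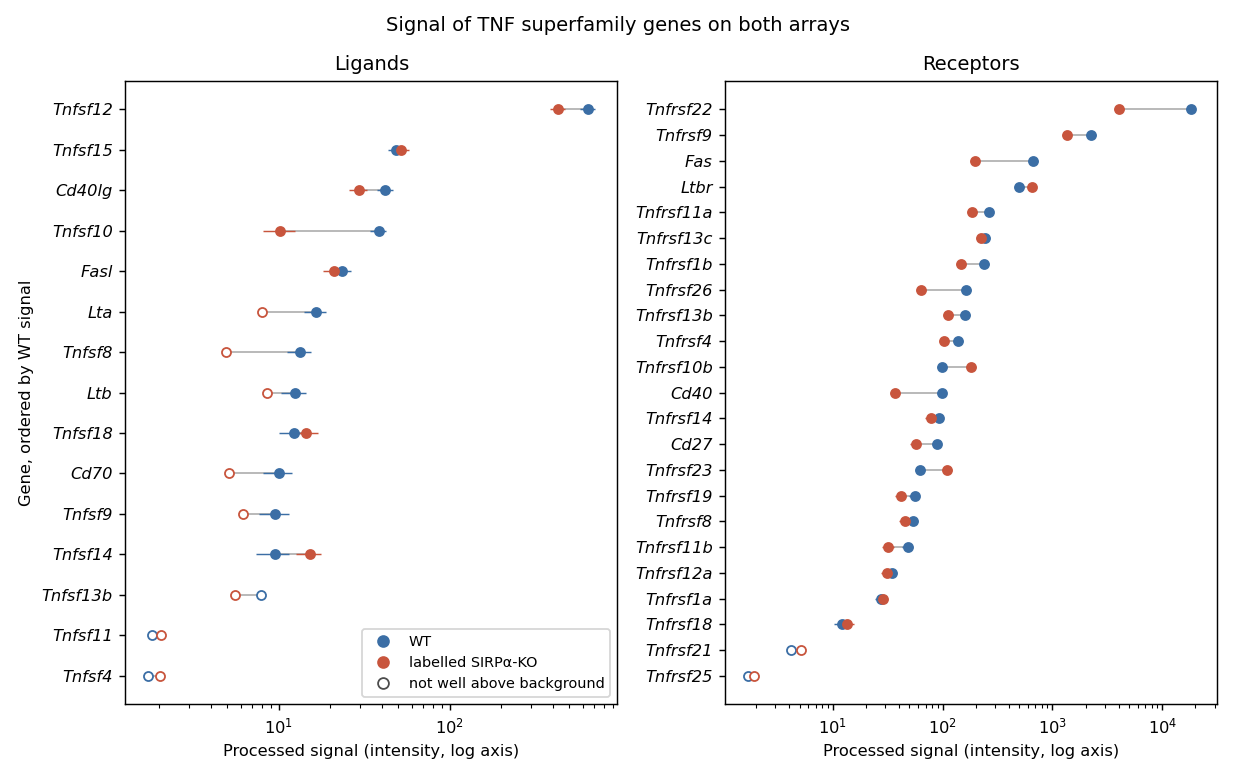
Processed signal (intensity, log axis) of the 15 ligands and 23 receptors on the WT array (blue) and the KO-labelled array (red), 1 array each, ordered by WT signal. Filled points are well above background and carry the software's spot error; the widest gaps among filled points are those of Tnfrsf22, Tnfsf10 and Fas. Brightness depends on the probe, so levels are not compared between genes.

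The genes of the TRAIL axis went in different directions. Tnfsf10, which encodes the death-inducing ligand TRAIL, gave 38.3 in WT against 10.2 on the KO-labelled array. The second value lay close to the lowest signal well above background there, 8.37. The difference was -1.74 ± 0.34, or 3.33-fold lower. It shrank to -0.38 after normexp background correction of the median spot signals, with an offset of 50, and quantile normalization. That offset pulls the differences of dim genes towards 0 by construction, so smaller values after normexp do not test the folds of dim members. Tnfrsf10b, the death receptor of this ligand in the mouse, was higher instead, at 99.1 in WT against 182 on the KO-labelled array. Its difference of 1.04 ± 0.21 lay just past the 2-fold limit, and fell short of it without scaling (0.88) and after normexp (0.68).

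Tnfrsf22 and Tnfrsf23 encode decoy receptors for TRAIL, and Tnfrsf26 is a close relative. The 3 genes follow each other on chromosome 7 with 0 other protein-coding genes between them in the RefSeq annotation of GRCm38.p6. Tnfrsf22 gave 18061 in WT against 4033 on the KO-labelled array, a difference of -1.99 ± 0.20 or 3.98-fold lower, and the lowest of all members. A further probe with the same Tnfrsf22 accession was not well above background on either array, with signals of 3.87 and 2.95. Probes with 1 accession thus read as very bright and as not well above background, and the fold of Tnfrsf22 rests on the bright probe alone. Tnfrsf26 gave 165 in WT against 64.2 on the KO-labelled array, a difference of -1.19 ± 0.21 or 2.29-fold lower (-0.73 after normexp).

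Tnfrsf23 fell just short of the 2-fold limit on the higher side. At its brighter probe the signal was 62.5 in WT against 111 on the KO-labelled array, a difference of 0.99 ± 0.21. It passed the limit after quantile normalization (1.01), in the authors' values (1.00) and with the percentile taken over probes well above background on both arrays (1.09). Its dimmer probe, with the same accession, went the other way, from 28.5 to 18.3, a difference of -0.47 ± 0.27. Tnfrsf11b, or osteoprotegerin, a soluble decoy that binds both RANKL and TRAIL, had signals of 48.2 and 32.1 and a difference of -0.42 ± 0.23.

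Fas and Cd40 were the other receptors at least 2-fold lower. Fas, the death receptor for Fas ligand, gave 665 in WT against 196 on the KO-labelled array. The difference of -1.59 ± 0.20, 3.02-fold lower, was between -1.76 and -1.24 under the 6 alternatives that could move it, namely no scaling, quantile, loess, another percentile, normexp and the authors' values. Under the same 6 Tnfrsf22 was between -2.16 and -1.73. The alternatives on filters, flags and probe choice could not move a gene with 1 unflagged spot well above background. Cd40, the receptor through which T cells license macrophages and dendritic cells and help B cells, gave 98.2 in WT against 37.2 on the KO-labelled array. Its difference was -1.23 ± 0.22, 2.35-fold lower, and -0.62 after normexp. Each of Fas, Cd40, Tnfrsf26, Tnfrsf10b and Tnfsf10 was read by a single probe on a single spot, so no further probe checks their differences.

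**Figure D2:**
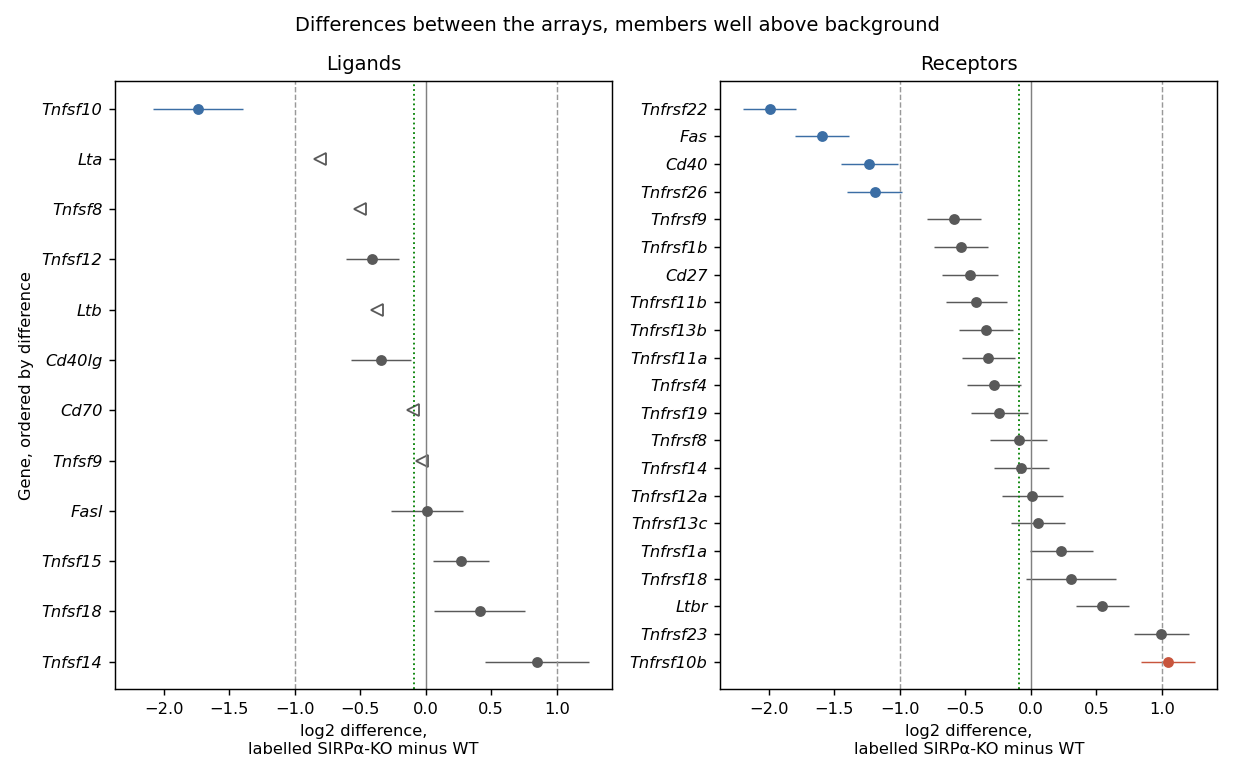
Log2 difference (KO-labelled array minus WT) of the 12 ligands and 21 receptors well above background on at least 1 array, with the spot error of both arrays; dashed lines mark 2-fold and the dotted line the median of all such genes, -0.09. Open triangles are ligands well above background in WT alone. Except for Ltb, whose value was not raised, they bound the fold from below, so the difference can lie further below 0. Among ligands, Tnfsf10 is drawn beyond 2-fold, and Tnfrsf22, Fas, Cd40 and Tnfrsf26 lie beyond it on the lower side with Tnfrsf10b on the higher side.

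Sequence upstream of the start site was available for 28 of the 38 members in the RefSeq table for GRCm38.p6. The windows of Fas and Tnfsf10 are shown because these members were at least 2-fold lower, and that of Tnfrsf23 because it lay nearest to the limit on the higher side. For the other 4 called members, Cd40, Tnfrsf22, Tnfrsf26 and Tnfrsf10b, no window was used here, so they enter neither the display nor the shares of windows. Each holds the 250 bases before the start, 5′ to 3′ on the strand of the gene. Capitals mark matches to 3 motifs searched on both strands: GGG and CC with 5 unspecified bases between them, a loose form of the NF-κB site, TTC and GAA with 3 between them, the site of STAT dimers, and TTTC and TTTC with 2 between them, a form of the interferon-stimulated response element.
Fas, chr19:34290409-34290658, plus strand: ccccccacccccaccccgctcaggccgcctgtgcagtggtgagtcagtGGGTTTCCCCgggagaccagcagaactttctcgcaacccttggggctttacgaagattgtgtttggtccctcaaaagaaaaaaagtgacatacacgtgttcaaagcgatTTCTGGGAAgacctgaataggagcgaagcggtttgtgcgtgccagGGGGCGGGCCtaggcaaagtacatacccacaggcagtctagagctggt
Tnfsf10, chr3:27316827-27317076, plus strand: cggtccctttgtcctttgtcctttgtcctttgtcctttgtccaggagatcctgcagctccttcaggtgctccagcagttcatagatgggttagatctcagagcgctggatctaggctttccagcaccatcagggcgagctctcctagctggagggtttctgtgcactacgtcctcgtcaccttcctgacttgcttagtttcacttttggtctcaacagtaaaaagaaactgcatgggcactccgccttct
Tnfrsf23, chr7:143685876-143686125, minus strand: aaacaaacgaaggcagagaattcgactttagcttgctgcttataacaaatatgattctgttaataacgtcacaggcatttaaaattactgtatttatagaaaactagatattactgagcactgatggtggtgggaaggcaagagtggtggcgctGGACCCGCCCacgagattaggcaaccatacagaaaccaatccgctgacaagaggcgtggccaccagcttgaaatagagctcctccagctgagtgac
The Fas window held GGGTTTCCCC, which starts 202 bases before the start site, GGGGCGGGCC at 48 bases and the STAT letters TTCTGGGAA at 93 bases. The Tnfrsf23 window held 1 match to the NF-κB letters, GGACCCGCCC, read on the opposite strand, and the Tnfsf10 window held none of the 3 motifs. Over the 32 windows of these 28 members, 62.5% held the NF-κB letters, 25.0% the STAT letters and 9.38% the interferon element, and no match overlapped a match to another motif. Among all 32851 windows of the same length the shares were 45.8%, 7.02% and 2.98%. A match is a string of letters and shows neither binding nor use, and windows of genes with several start sites can overlap.

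The other 6 ligands well above background on both arrays lay within the 2-fold limit. Tnfsf12, the ligand TWEAK that acts on tissue cells, gave 642 in WT against 431 on the KO-labelled array, a difference of -0.41 ± 0.20, and its further probe gave -0.48 ± 0.28. At the brighter probe it was -0.16 after quantile normalization, -0.19 in the authors' values and -0.12 after normexp, each within the error of 0.20. Tnfsf15, the T cell costimulator TL1A, had signals of 48.7 and 52.2 and a difference of 0.27 ± 0.22. Cd40lg, the T cell ligand of CD40, had signals of 41.8 and 29.4 and a difference of -0.34 ± 0.23. Fasl, the ligand of Fas, had signals of 23.5 and 21.0 and differed by 0.01 ± 0.27, less than its error. Tnfsf14, or LIGHT, a ligand of both HVEM and the lymphotoxin β receptor, went from 9.45 to 15.2, a difference of 0.85 ± 0.40, the highest among ligands. The WT signal was close to the lowest one well above background there, 7.92, and the difference was 0.12 after normexp and 1.03, past the limit, after cyclic loess. Tnfsf18, the ligand of GITR, had signals of 12.2 and 14.4 and a difference of 0.41 ± 0.35.

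A group of 5 ligands was well above background on the WT array alone. Lta, which encodes lymphotoxin α, was spotted 10 times, with a mean signal of 16.5 on the WT array, where all 10 spots were well above background, and 8.0 on the other, where 2 were. The SD of its spots was 0.24 and 0.52 on the log2 scale, and Lta was at least 1.75-fold lower (-0.81). That bound shrank to -0.20 in the authors' values and to -0.11 after normexp. Tnfsf8, the ligand of CD30, had signals of 13.3 and 4.94 and was at least 1.41-fold lower; taken at its own value, with no bound, the difference was -1.26. Ltb, the membrane anchor of lymphotoxin, had signals of 12.4 and 8.51. The second lay above the lowest well-above signal of that array, 8.37, so it was not raised and gives no bound. Its difference of -0.37 ± 0.42 was within its error. Cd70, the ligand of CD27, and Tnfsf9, the ligand of 4-1BB, had WT signals of 10.1 and 9.58 and were at least 1.07-fold and 1.02-fold lower. Of all genes, 9.23% among those well above background on the WT array were not so on the other, beside 15.2% of the 33 members detected on the WT array. Tnfsf4, Tnfsf11 and Tnfsf13b, which encode OX40L, RANKL and the B cell survival factor BAFF, were not well above background on either array.

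Costimulatory receptors, which bind TRAF adaptors, mostly lay below 0. All 8 were well above background on both arrays, where 56.5% of all genes lay below 0. Of the 8, 7 lay below 0 and 1, Cd40, was at least 2-fold lower. Tnfrsf9, which encodes 4-1BB, gave 2266 in WT against 1344 on the KO-labelled array, a difference of -0.58 ± 0.20. Its dimmer probe went the other way within its error, from 102 to 104 (0.19 ± 0.21), and after quantile normalization the brighter probe gave -0.24. Tnfrsf1b, the TNF receptor that lacks a death domain, had signals of 240 and 147 and a difference of -0.54 ± 0.21. Cd27, a receptor of T cells, had signals of 88.4 and 57.0 and differed by -0.46 ± 0.21 and by -0.42 ± 0.24 at its further probe. Tnfrsf4 (OX40) had signals of 140 and 102 and differed by -0.28 ± 0.21. Tnfrsf8 (CD30) at -0.09, Tnfrsf14 (HVEM) at -0.07 and Tnfrsf18 (GITR) at 0.31 each lay within their error, and the further Tnfrsf14 probe gave -0.53 ± 0.30.

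Of the 5 receptors with a death domain, Fas and Tnfrsf10b have been described and lay on opposite sides. Tnfrsf1a, the main receptor for TNF, had signals of 27.5 and 28.7 and a difference of 0.23 ± 0.24. Its further probe, averaged over 9 spots, gave 0.04 ± 0.33. Tnfrsf21 and Tnfrsf25 were not well above background on either array.

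The receptors of B cell survival factors and of tissue cells lay within the 2-fold limit. Tnfrsf13c, the BAFF receptor, gave 243 in WT against 224 on the KO-labelled array, a difference of 0.05 ± 0.20, with a further probe at -0.13. Tnfrsf13b, or TACI, had signals of 161 and 113 and differed by -0.34 ± 0.21 and by -0.19 at its further probe. Both are B cell genes, and among 12 B cell markers the 10 that were well above background had a median difference of 0.19, with 1, Cr2, at least 2-fold lower. The scaled sum over that list was 38.6 and 35.0, and 23.2 and 31.3 without Cr2. Most of the latter sum came from Cd22 (signals 1357 and 1948). Blk and Ebf1 were not well above background on either array. The part of B cells in these values was not tested. Ltbr, the lymphotoxin β receptor, was higher, with signals of 501 and 651 and a difference of 0.54 ± 0.20. Tnfrsf11a, the RANK receptor of osteoclast precursors, had signals of 263 and 187 and a difference of -0.32 ± 0.21, which turned to 0.05 after normexp. Tnfrsf12a, the TWEAK receptor, differed by 0.01 ± 0.23 and Tnfrsf19 by -0.24 ± 0.22.

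Several members are also known from T cells. All 12 T cell markers were well above background on both arrays, with a median difference of -0.08 and 1, Cd8b1, at least 2-fold lower. The scaled signal summed over that list was 366 in WT against 188 on the KO-labelled array, most of it from Cd8b1 (signals 27895 and 10283), and 87.4 and 72.8 without it. Among the 9 conventional dendritic cell markers, the median difference was -0.17, with 1 lower and 1, Clec10a, higher by 2-fold or more. Clec10a passed the background limit on the KO-labelled array alone and Clec9a in WT alone, which fixed their signs. Of the 7 well above background on both arrays, 1 was lower and 0 were higher by as much, also with a median of -0.17. The scaled sum over that list was 15.6 and 8.75, most of it from Flt3 (signals 1217 and 516), and 3.48 and 2.97 without it. Monocyte markers had a median of -0.19, plasmacytoid dendritic cell markers of 0.13, erythroid markers of -0.30 and platelet markers of -0.06. For plasma cell, NK cell and neutrophil markers it was -0.29, -0.17 and -0.12. These lists each hold 2 genes well above background in WT alone, which had to lie at or below 0. Over genes well above background on both arrays the same medians were -0.004, -0.17 and -0.12. Of 10 stromal and endothelial markers 7 were well above background, 2 of them at least 2-fold lower, with a median of -0.29 and a scaled sum of 147 and 52.1. Most of that sum came from Ccl19 (signals 12915 and 3245), without which it was 18.4 and 15.7, and Col1a1 (0.61) and Cxcl13 (0.25) lay above 0. The scaled sum was higher on the KO-labelled array for plasmacytoid dendritic cell markers (815 and 1287, or 20.2 and 12.4 without Siglech). It was also higher for platelet markers (148 and 160, or 25.7 and 20.4 without Pf4). Neutrophil markers were higher with Elane (649 and 718) and without it (193 and 277). Nearly all of the latter sum came from Csf3r (signals 19218 and 24661). Of the 6 neutrophil markers measured, Csf3r was the 1 above 0, while 4 lay below 0 and 1 at 0. The sum was lower for monocyte markers (131 and 116, or 9.31 and 9.39 without Vcan). It was also lower for plasma cell markers (36.9 and 28.1, or 23.5 and 26.1 without Jchain). NK cell (8.63 and 7.60) and erythroid markers (15.7 and 12.8) were lower too. The plasmacytoid, platelet, monocyte and plasma cell sums thus changed direction without the gene named. The part of these cells in the values of Cd27, Cd40lg, Tnfrsf4, Fas and Cd40 was not tested.

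Further probes gave a check within the array for some members. Of the 38 members, 10 had several probes, and in 9 of these 2 probes were well above background. In 3 of the 9, Tnfrsf23, Tnfrsf9 and Tnfrsf13c, the probes differed in sign, and in Tnfrsf23 by more than the error of each probe. None of the members called at 2-fold was among the 9.

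**Figure D3:**
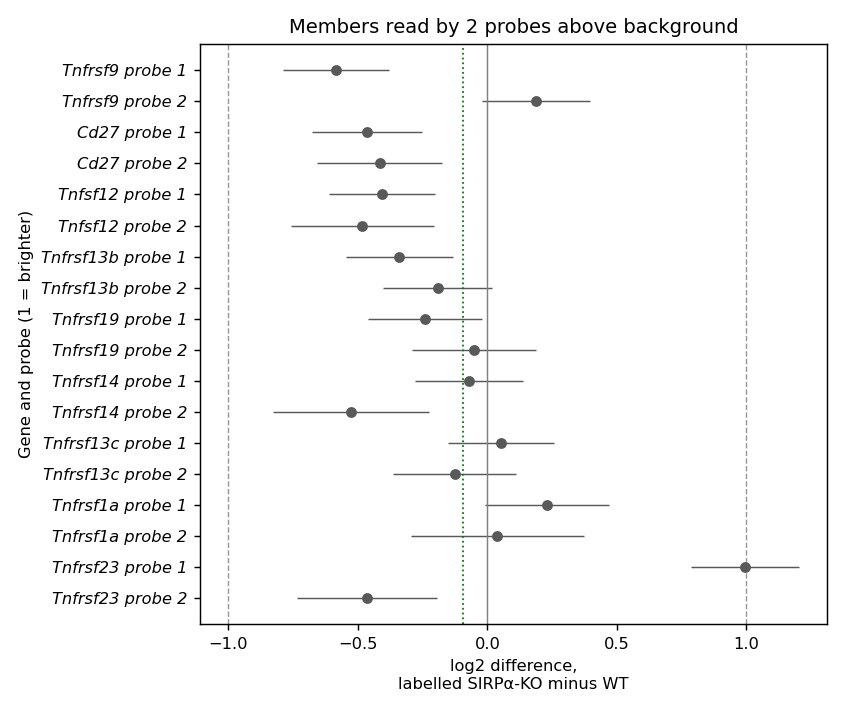
Log2 difference (KO-labelled array minus WT) at each probe of the 9 members with 2 probes well above background, with the spot error; the dotted line is the median of all genes and the dashed lines mark 2-fold. The Tnfrsf23 probes lie at 0.99 and -0.47, on opposite sides of 0.

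Ligands were then set beside their receptors. In 16 of 22 known pairs both partners were well above background on at least 1 array. In 6 of the 16 the ligand was well above background in WT alone, which fixes its sign, so signs are not counted over the pairs. Tnfsf10 and Tnfrsf22 were both at least 2-fold lower, and Tnfsf10 and Tnfrsf10b were past 2-fold in opposite directions. The receptor was the partner beyond 2-fold in the pairs of Fas and of CD40, while their ligands Fasl and Cd40lg differed by 0.01 and -0.34. Tnfsf18 and its receptor Tnfrsf18 lay above 0 together, at 0.41 and 0.31, the receptor within its error of 0.34. Both were dim, with signals of 12.2 and 14.4 for the ligand and 12.2 and 13.5 for the receptor. After normexp, whose offset pulls the differences of dim genes towards 0, each was 0.12. Members occur in several pairs, so the pairs are not independent of each other.

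**Figure D4:**
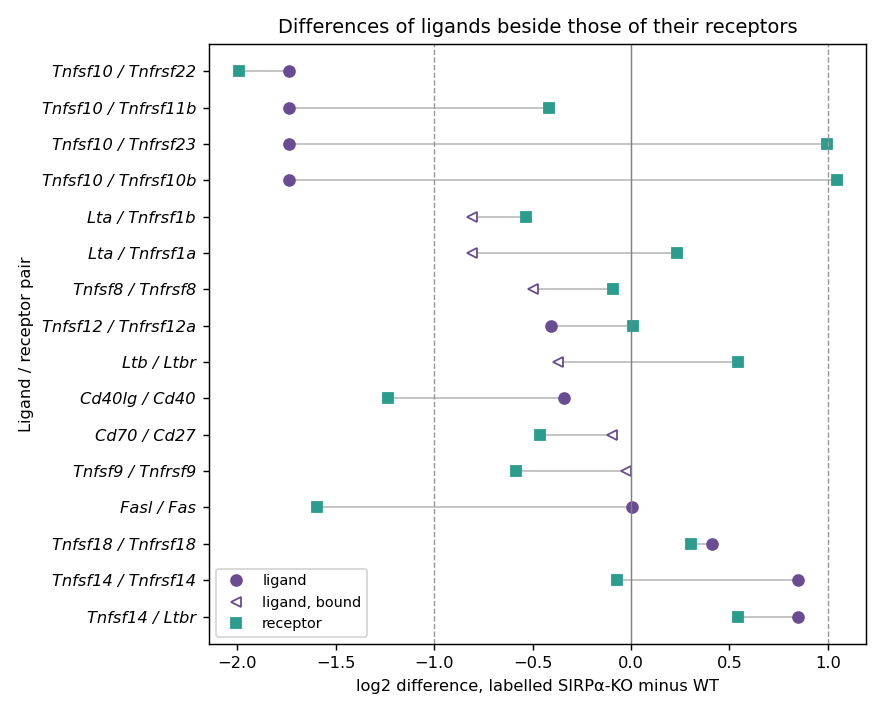
Log2 difference (KO-labelled array minus WT) of ligand and receptor in 16 pairs with both partners well above background on at least 1 array. Receptors are squares. Ligands are circles, or open triangles where they were well above background in WT alone. Dashed lines mark 2-fold. The widest separation is that of Tnfsf10 at -1.74 and Tnfrsf10b at 1.04.

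Some members are direct neighbours in the genome. Ltb, Tnf and Lta stand side by side on chromosome 17, and Tnf, the founding cytokine of the family, had signals of 18.1 and 16.3 and a difference of 0.02 ± 0.31, while Ltb and Lta passed the background limit in WT alone. Tnfrsf4 and Tnfrsf18 are neighbours on chromosome 4, at -0.28 and 0.31.

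Family members outside the naming pattern included the ectodysplasin genes, which act in skin appendages. Eda2r, a receptor of ectodysplasin, gave 262 in WT against 30.1 on the KO-labelled array. It was 7.76-fold lower (-2.96 ± 0.22), and its further probe was not well above background on either array. Eda, its ligand gene, had signals of 1674 and 709 and a difference of -1.07 ± 0.20. The mean signal of Eda was above 500, where 16.4% of genes were at least 2-fold lower. No values under the alternative settings are given for Eda and Eda2r. A further Eda probe, made for another transcript, went from 43.1 to 10.3 and gave -1.90 ± 0.34. Edar differed by -0.04 ± 0.38, Relt by -0.19 ± 0.30 and Ngfr, over 10 spots, by -0.24 ± 0.20. Tnfsfm13, the read-through gene that joins Tnfsf12 and Tnfsf13, had signals of 129 and 130 and differed by 0.18 ± 0.21.

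Signalling genes below the receptors were taken from a list of 50 adaptors, kinases, ubiquitin ligases, NF-κB proteins and feedback inhibitors. Of these, 42 were well above background on at least 1 array, 3 were lower and 1 higher by 2-fold or more, and the median difference was -0.19. Relative to the 5.55% and 3.11% of all genes, 3 and 1 of 42 come to 7.14% and 2.38%. Traf6, the adaptor shared by CD40, RANK and Toll-like receptors, gave 3997 in WT against 993 on the KO-labelled array, a difference of -1.84 ± 0.20 or 3.58-fold lower. Rela, the p65 subunit of NF-κB, went from 1589 to 546 (-1.37 ± 0.20). Nfkb1, which encodes the p50 subunit, went from 947 to 360, a difference of -1.23 ± 0.20. It was -0.98 after quantile normalization and -0.87 after normexp, and -0.25 ± 0.33 at a further, dimmer probe. Tab2, a scaffold that activates the kinase TAK1, was higher, from 125 to 294 (1.40 ± 0.21). All 3 lower genes were among the 10 of the list with a mean signal of 500 or more. Of all named genes that bright, 16.4% were at least 2-fold lower. Tnfaip3, the feedback inhibitor A20, fell just short of the limit at -0.95 ± 0.20, while Nfkbia, the inhibitor IκBα, differed by 0.04. Among the TRAF adaptors that the costimulatory receptors bind, Traf1 differed by -0.64, Traf2 by 0.12 and Traf3 by 0.11. The death adaptors Fadd and Tradd differed by -0.35 and -0.02, and Casp8 and Ripk1 were not well above background on either array.

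**Figure D5:**
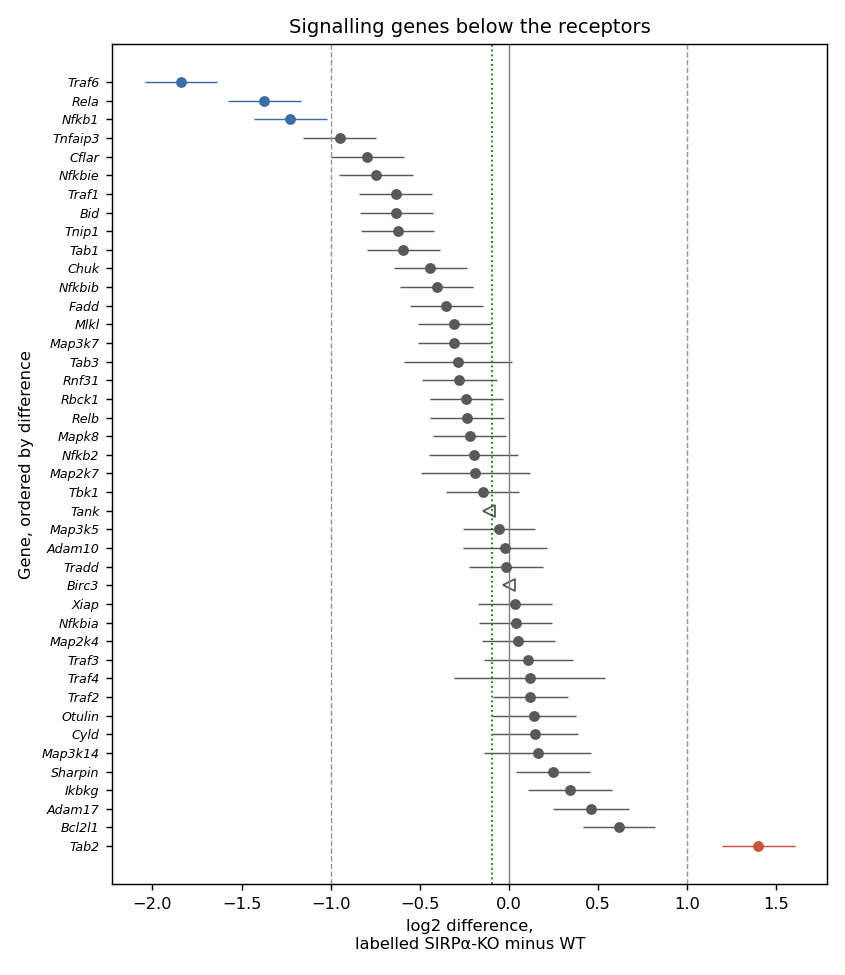
Log2 difference (KO-labelled array minus WT) of the 42 signalling genes well above background on at least 1 array, with the spot error. Open triangles are genes well above background in WT alone, whose difference can lie further below 0. Dashed lines mark 2-fold and the dotted line the median of all genes. Traf6, Rela and Nfkb1 lie beyond 2-fold on the lower side and Tab2 at 1.40 on the higher side.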

How the data were processed

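Red pulp macrophage RNA was hybridised to 1 one-colour array per genotype. Per the file headers, the deposited spot intensity was made with Agilent Feature Extraction 11.0.1.1 on mouse design 26655 (mm9), which subtracts background and detrends within the array. A deposited table of the authors' log2 values, of a normalization the sources used here do not give, served as an alternative; its column medians were 4.56 on both arrays and its values followed the scanner signal (Spearman's rho 0.996 and 0.993).

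Control spots and 321 of 43020 spots flagged as outliers on either array were left out. Log2 processed signals minus the 75th percentile (signals 100.2 and 89.1) were averaged over the spots of a probe. Accessions without versions were matched to RefSeq (GRCm38.p6), naming 27206 of 39386 probes. A gene was read from its probe with the highest mean signal. It counted as well above background where at least 50% of its spots were; no spot was saturated. A value below this was raised to the array's lowest well-above value, where under it, to give the bound. The gene steps were tested on simulated data. Members called at 2-fold, probes of opposite sign and the brightest 5 ligands and 8 receptors are given in full. Members and lists were chosen with earlier results of these data known. The role groups, the ligand and receptor pairs, the signal limit of 500, the neighbour search, the 3 motifs, the promoters shown and some further members and genes named were chosen after the values had been seen, as was normexp on median signals. The analysis used Python, numpy and limma 3.58.1. Alternatives were other scalings, normexp, the authors' values, other filters, probe choices and fold limits. One further receptor gene is not reported here.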

Additional observations from a re-analysis of the deposited data

How the results depend on the processing

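The fold of each gene has no replicate check, and for members near background the signal limits what can be said. As the counts are small, 1 gene can move them by over 1.5 times. Normexp used median signals and was chosen after the data were seen, because the planned form on mean signals was not run (the scanner tables used here give median signals). It left 0 ligands and 2 receptors at least 2-fold lower and 0 receptors higher, with a receptor median of -0.065. With no filter on dim probes 2 ligands and 5 signalling genes were lower. At 1.5-fold, 2 ligands were lower and 1 higher, 2 receptors were higher, and 10 signalling genes were lower and 2 higher. At 3-fold, 2 receptors and 1 signalling gene were lower, and 0 receptors and 0 signalling genes higher. These limits and the filter change counts by construction. Receptors at least 2-fold higher numbered 0 without scaling and 2 after quantile normalization, with the percentile over probes well above background on both arrays, and in the authors' values, where Tnfrsf23 joined Tnfrsf10b. Cyclic loess gave 1 ligand higher. None of the members called at 2-fold changed sign in the settings run. No paired analysis was possible because each genotype has 1 array.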
